A study of Mus musculus with 35 samples.

Results

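The WNT and TCF pathway genes described here are 8 genes chosen by name: Ctnnb1, Tcf7, Lef1, Tcf7l1, Tcf7l2, Axin2, Nkd1 and Sp5. Every peak over one of these genes or within 50 kb of it was taken, which gave 980 of the 628867 H3K27ac peaks and 451 of the 274004 KLF4 peaks of the series. The genes are 8 of 21631 protein-coding genes in the table used, and each gene with its flanks is called its window. Mouse embryonic fibroblasts (MEF) of a C57BL/6 x 129 background carried the inducible cassette OKSM (Pou5f1, Klf4, Sox2, Myc) at Col1a1 and the activator M2rtTA at ROSA26, and MEF libraries came from such cells without doxycycline. Reprogramming cells of that genotype were grown in embryonic stem cell (ESC) medium to which doxycycline (1 µg/ml) and ascorbic acid (50 µg/ml) had been added. Day 3 cells were taken unsorted, and cells of days 6 and 9 had been sorted as positive for SSEA1, a surface antigen of pluripotent cells. The reference was V6.5, a single ESC line grown on irradiated feeder cells in serum with LIF, and the 2i culture had in addition 1 µM of a MEK inhibitor and 3 µM of a GSK3 inhibitor. Chromatin immunoprecipitation with sequencing mapped H3K27ac, a histone mark of active promoters and enhancers, with 2 libraries each of MEF, day 9 and serum ESC and 3 each of day 3 and day 6. KLF4, one of the induced factors, was mapped in 2 libraries each of day 3, day 6, day 9, serum ESC and 2i ESC.

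WNT proteins bind Frizzled and LRP receptors, which stops a complex of Axin, APC and the kinase GSK3 from marking β-catenin for destruction. β-catenin then enters the nucleus and joins DNA-binding proteins of the TCF/LEF family, which otherwise hold target genes down with corepressors. In mouse ESC the pathway favours self-renewal, Tcf7l1 is known as its main repressive TCF, and a GSK3 inhibitor stands in for the WNT signal in 2i medium.

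Some libraries stood apart or went against a label. In the 2i library of batch EA-3702 the peak names begin with a label for ESC without 2i, whereas those of the other 2i library name 2i, so 2i results are given with and without it. The numbers 1 and 2 of the day 6 H3K27ac libraries of batch DG-3458 are exchanged between titles and peak names. Covered length over the genome ran from 9.21 to 83.5 Mb among H3K27ac lists, lowest at day 6 and highest in MEF. KLF4 lists covered 4.45 to 15.2 Mb, and the serum ESC library of batch EA-2697 had the shortest cover. Of 8 fibroblast marker genes, both MEF libraries had an H3K27ac peak at 8, day 3 libraries at 7 or 8, those of days 6 and 9 at 4, and ESC at 3 to 5, with Col3a1, Col1a2 and Thy1 at 0 from day 6 on. Of 8 pluripotency markers, 8 had one in ESC and 7 at day 9, while day 3 libraries had 2 or 3. MEF and the sorted day 6 libraries had 2, and both day 6 libraries of batch DG-3458 had no peak at Pou5f1. Read depth is unknown, and in these bulk samples fewer cells with a mark and less mark per cell cannot be told apart. Antibody numbers in the labels rise by 1 from sample to sample, so the antibodies are taken from the protocol text.

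Promoter sequences are shown for 6 genes whose starts the results below turn on. Each run is the 250 bases before a listed RefSeq start (GRCm38.p6), 5′ to 3′ on the gene's strand, and a promoter is counted below as these bases with the 50 after the start. Capitals mark the KLF letters GGGNGNGG on either strand (reverse CCNCNCCC) and the TCF/LEF letters CTTTGAA or CTTTGAT on either strand. Tcf7l1 (chr6:72789046-72789295, minus strand) and Ctnnb1 (chr9:120933150-120933399, plus strand) are shown because KLF4 peaks lay over these promoters in all 10 libraries. Tcf7l2 (chr19:55741560-55741809, plus strand) had one in 9 of 10.
Tcf7l1: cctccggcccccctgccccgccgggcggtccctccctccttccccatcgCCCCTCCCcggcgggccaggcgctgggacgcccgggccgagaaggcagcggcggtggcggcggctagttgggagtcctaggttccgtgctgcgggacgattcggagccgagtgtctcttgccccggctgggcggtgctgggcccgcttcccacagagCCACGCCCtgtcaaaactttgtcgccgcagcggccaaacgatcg
Ctnnb1: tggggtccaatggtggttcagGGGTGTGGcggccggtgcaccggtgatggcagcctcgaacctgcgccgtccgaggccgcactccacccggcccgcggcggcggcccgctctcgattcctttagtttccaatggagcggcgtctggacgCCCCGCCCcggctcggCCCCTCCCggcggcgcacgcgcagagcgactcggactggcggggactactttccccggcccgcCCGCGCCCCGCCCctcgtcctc
Tcf7l2: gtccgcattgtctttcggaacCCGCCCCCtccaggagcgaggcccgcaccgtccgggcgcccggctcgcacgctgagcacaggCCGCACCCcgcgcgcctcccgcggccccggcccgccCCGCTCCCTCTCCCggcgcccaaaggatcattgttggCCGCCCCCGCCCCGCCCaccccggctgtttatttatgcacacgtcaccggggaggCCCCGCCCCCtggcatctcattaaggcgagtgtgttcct
Axin2 (chr11:108920099-108920348, plus strand) is shown because its KLF4 peaks came and went, Lef1 (chr3:131110047-131110296, plus strand) because its start had H3K27ac in ESC alone, and Sp5 (chr2:70474673-70474922, plus strand) because it alone held the TCF/LEF letters.
Axin2: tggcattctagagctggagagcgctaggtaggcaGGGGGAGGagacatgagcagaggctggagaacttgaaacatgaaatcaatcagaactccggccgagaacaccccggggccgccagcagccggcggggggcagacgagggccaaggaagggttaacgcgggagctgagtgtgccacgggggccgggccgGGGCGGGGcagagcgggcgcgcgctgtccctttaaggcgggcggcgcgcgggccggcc
Lef1: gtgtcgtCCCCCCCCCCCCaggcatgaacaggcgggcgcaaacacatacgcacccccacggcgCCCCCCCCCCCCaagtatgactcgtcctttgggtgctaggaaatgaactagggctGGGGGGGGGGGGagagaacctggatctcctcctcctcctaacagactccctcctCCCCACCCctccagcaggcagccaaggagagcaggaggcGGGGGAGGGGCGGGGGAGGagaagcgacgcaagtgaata
Sp5: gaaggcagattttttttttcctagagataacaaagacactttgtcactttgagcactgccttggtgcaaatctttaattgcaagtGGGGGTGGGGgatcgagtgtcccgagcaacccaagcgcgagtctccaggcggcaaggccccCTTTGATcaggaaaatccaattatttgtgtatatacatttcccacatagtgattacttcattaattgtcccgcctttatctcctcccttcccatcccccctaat
The KLF letters occur in 45.9% of 32851 listed promoters and the TCF/LEF letters in 7.48%. Tcf7l2 held 9 KLF matches, Ctnnb1 5, and Tcf7l1, Axin2 and Sp5 2 each. Lef1 held 20, most of them overlapping matches within runs of C or G. The capitals in Sp5 near the middle of the run are its 1 TCF/LEF match, and the 2 KLF matches before it overlap each other. A match describes these letters and does not show a binding site.

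All 8 genes had less H3K27ac at day 3 than in MEF and more at day 9 than at day 6, and from day 9 to ESC they parted, with Tcf7, Lef1, Axin2 and Sp5 higher and Nkd1 lower in ESC. Day 9 and ESC share no batch. In that last step the calls of Lef1, Axin2, Sp5 and Nkd1 depended on the processing or on single libraries, as given below. The measure was the covered length, the kilobases of a window under peaks, tested as log2(bp + 500) with limma over 19778 windows. On that scale all 8 genes differed over the 5 stages at an adjusted p below 0.05, as did 98.6% of all windows. An exact permutation test of the same F per window called all 8 genes and 96.1% of windows. From MEF to day 3 all 8 genes fell, against 65.1% of windows, with a median difference of -1.51 against -0.99 over all windows. From day 6 to day 9 all 8 rose, against 87.4% of windows, with medians of 2.06 and 1.42. Measured against the median of all windows, that rise was -0.23 for Sp5, -0.03 for Axin2 and 0.11 for Tcf7. For the other genes it was 0.52 (Ctnnb1) to 1.1 (Nkd1). Both steps depend on the measure for some genes. With equal numbers of top peaks Nkd1 turned to a higher value at day 3 than in MEF (1.44, adjusted p = 0.0593), and its rise from day 6 to day 9 was not called (0.90, adjusted p = 0.174). With 10 kb flanks Lef1 and Sp5 had a difference of 0 in either step (adjusted p = 1), and at day 3 Tcf7l2 (-0.90, adjusted p = 0.0706) and Ctnnb1 (-0.33, adjusted p = 0.294) were not called. With numbers of peaks the day 3 differences of Tcf7l2 (-0.16, adjusted p = 0.574), Tcf7l1 (-0.50, 0.159), Ctnnb1 (-0.50, 0.333) and Sp5 (-0.67, 0.111) were not called. Measured against the median of all windows, the day 3 difference was -0.04 for Tcf7l2 and 0.14 for Ctnnb1. Tcf7l2 thus fell about as far as a typical window and Ctnnb1 less far. The day 3 call of Tcf7l1 was lost without either MEF library or the second day 3 library of batch DG-3458 (adjusted p up to 0.0955). That of Tcf7l2 was lost without either MEF library or either day 3 library of that batch (adjusted p up to 0.115).

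**Figure D1:**
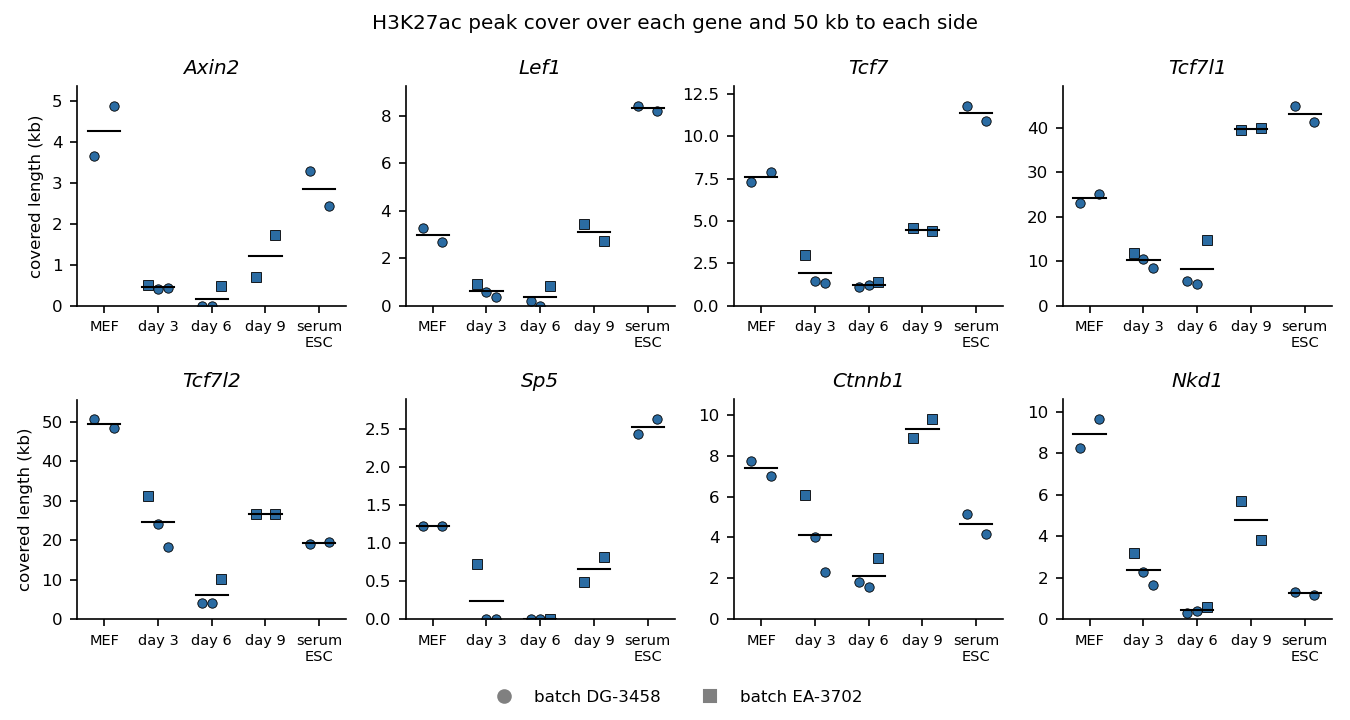
H3K27ac covered length (kb, axis from 0, own scale per gene) over each gene and its 50 kb flanks. Each point is a library (circles batch DG-3458, squares batch EA-3702) and each line a group mean; all 8 genes are lower at day 3 than in MEF, and Lef1, Tcf7, Tcf7l1 and Sp5 are highest in serum ESC.

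Ctnnb1 encodes β-catenin, the transducer of the signal. Its H3K27ac covered 7.76 and 7.01 kb in MEF, 6.07, 4.04 and 2.29 kb on day 3, 1.82, 1.58 and 2.98 kb on day 6, 8.88 and 9.78 kb on day 9, and 5.13 and 4.16 kb in ESC. Day 9 was above all other libraries, and MEF lay above ESC without overlap. The day 9 gain over day 6 was 1.94 ± 0.34 (log2, SE; adjusted p = 0.00057), while serum ESC minus MEF was -0.62 (adjusted p = 0.181). With equal numbers of top peaks serum ESC minus MEF was -0.80 and called (adjusted p = 0.0209). The day 3 difference of -0.85 was barely called (adjusted p = 0.0463). That call was lost on leaving out any of 9 of the 12 libraries. Over the 12 fits the difference ran from -1.14 to -0.53. It stayed at -0.85 where the library left out was not of MEF or day 3, so there only the p-value moved.

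Tcf7 encodes TCF1, a TCF factor that mostly activates. Its window had 7.27 and 7.87 kb in MEF, 2.96, 1.46 and 1.31 kb on day 3, 1.11, 1.20 and 1.37 kb on day 6, 4.55 and 4.38 kb on day 9, and 11.8 and 10.9 kb in ESC. ESC libraries were above all others, and MEF above day 9. ESC minus day 9 was 1.26 ± 0.29 (log2, SE; adjusted p = 0.00614), and ESC minus MEF was 0.56 (adjusted p = 0.125), and with equal numbers of top peaks it was 0.90 and called (adjusted p = 0.00556). This window also holds Skp1, a ubiquitin ligase subunit, whose promoter carried the one region present in all 12 libraries. In every day 6 library and both day 3 libraries of batch DG-3458 the peak of that region was the only one in the window. The cover of those libraries therefore describes the Skp1 promoter, 51.2 kb from the Tcf7 start.

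Lef1 encodes a TCF/LEF factor that is itself a WNT target in many tissues. It had 3.26 and 2.68 kb in MEF, 0.914, 0.566 and 0.366 kb on day 3, 0.204, 0 and 0.834 kb on day 6, 3.46 and 2.72 kb on day 9, and 8.41 and 8.21 kb in ESC. The only peaks of day 6 and the best scoring peak of each day 9 library lay near the promoter of the neighbour Hadh. That is about 162 kb from the Lef1 start. Day 9 overlapped MEF, and both ESC libraries stood above every other. ESC exceeded MEF by 1.35 ± 0.41 (log2, SE; fold 2.55 on this scale; adjusted p = 0.0177) and day 9 by 1.30 (adjusted p = 0.0285). With either MEF or either ESC library left out, the ESC minus MEF difference was 1.23 to 1.47, and its adjusted p rose to between 0.051 and 0.0929, past the threshold. With equal numbers of top peaks it was 0.57 (adjusted p = 0.461). The ESC minus day 9 difference was 0.08 with equal top peaks (adjusted p = 0.962). That call was likewise lost without any 1 of the day 9 or ESC libraries (adjusted p up to 0.141).

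Tcf7l1 encodes TCF3, the mainly repressive family member of ESC. It had 23.1 and 25.0 kb in MEF, 11.9, 10.5 and 8.38 kb on day 3, 5.51, 4.74 and 14.6 kb on day 6, 39.5 and 39.9 kb on day 9, and 44.9 and 41.3 kb in ESC. The ESC minus day 9 difference was 0.12 (log2; adjusted p = 0.867), but it was 0.99 with batch as a term (adjusted p = 0.0318) and -0.88 with equal numbers of top peaks (adjusted p = 0.157). The 14.6 kb library at day 6 came from batch EA-3702. The gain from day 6 to day 9 was 2.36 ± 0.39 (log2, SE; adjusted p = 0.00043). ESC minus MEF was 0.83 (adjusted p = 0.125), although the library ranges did not overlap; with numbers of peaks it was called (1.16, adjusted p = 0.00886).

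Tcf7l2 encodes TCF4, a family member with wide expression. It had 50.6 and 48.5 kb in MEF, 31.3, 24.2 and 18.3 kb on day 3, 4.06, 3.97 and 10.1 kb on day 6, 26.5 and 26.5 kb on day 9, and 19.0 and 19.5 kb in ESC. MEF was highest and day 6 lowest, with no overlap between MEF and any later stage. It fell from day 3 to day 6 by 2.03 ± 0.33 (log2, SE; adjusted p = 0.0012), and was lower in ESC than in MEF (-1.34 ± 0.40, adjusted p = 0.016). That last call was lost without either MEF or either ESC library, with adjusted p between 0.0601 and 0.0714 and differences from -1.37 to -1.31. As a share of the window, Tcf7l2 had 16.6 to 17.3% under peaks in MEF and 6.50 to 6.69% in ESC, while Tcf7l1 had 8.80 to 9.53% and 15.7 to 17.1%.

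Axin2 is a scaffold of the destruction complex and a feedback target of the pathway. It had 3.67 and 4.88 kb in MEF, 0.505, 0.412 and 0.418 kb on day 3, 0, 0 and 0.472 kb on day 6, 0.693 and 1.73 kb on day 9, and 3.29 and 2.43 kb in ESC. MEF was highest, ESC next, and the day 6 libraries of batch DG-3458 had no peak in the window. The drop to day 3, -2.33 ± 0.34 (log2, SE; adjusted p = 0.000269), was called in each of the 12 fits that left out 1 library. ESC minus MEF was -0.51 (adjusted p = 0.273). ESC minus day 9 was 1.03 (adjusted p = 0.0494) but was not called when any of 10 of the 12 libraries was left out. Over the 12 fits that left out 1 library this difference ran from 0.58 to 1.48.

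Nkd1 encodes Naked cuticle 1, an inhibitor that binds Dishevelled. Its window had 8.26 and 9.64 kb in MEF, 3.21, 2.27 and 1.66 kb on day 3, 0.286, 0.405 and 0.561 kb on day 6, 5.72 and 3.84 kb on day 9, and 1.31 and 1.17 kb in ESC. It was the gene called lower in ESC than at day 9, whereas Tcf7, Lef1, Axin2 and Sp5 were higher, and no ranges of MEF, day 9 and ESC overlapped. It fell from day 3 to day 6 by 1.62 ± 0.24 (log2, SE; adjusted p = 0.00082) and from day 9 to ESC by 1.58 ± 0.30 (adjusted p = 0.0021). The first call was lost with equal top peaks (-0.58, adjusted p = 0.52). At a q-value of at most 0.01 both calls were lost, with differences of -0.86 (adjusted p = 0.291) and -1.56 (adjusted p = 0.127). Against MEF, ESC was lower by -2.44 ± 0.30 (log2, SE; adjusted p = 6.79e-05), a call kept in each of the 12 fits that left out 1 library. With lists of equal length made from the top peaks, however, the ESC minus MEF difference of Nkd1 was 0.

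Sp5 encodes a zinc finger factor and direct WNT target of ESC. Its window had 1.22 and 1.22 kb in MEF, 0.724, 0 and 0 kb on day 3, no peak in the 3 day 6 libraries, 0.488 and 0.816 kb on day 9, and 2.43 and 2.62 kb in ESC. The single peak of each MEF library lay over a listed promoter of the neighbour Erich2 (chr2:70508558-70509785), 34.2 kb from the Sp5 start. The fall from MEF to day 3 therefore describes that region. ESC libraries were above all others. ESC minus day 9 was 1.41 ± 0.36 (log2, SE; adjusted p = 0.0116), and was not called without the first day 9 library or the second ESC library (adjusted p up to 0.0872). The rise from day 6 to day 9 was not called without the second day 9 library (adjusted p = 0.06). ESC minus MEF was 0.81 (adjusted p = 0.0825). It was called with 10 kb flanks (2.06, adjusted p = 6.25e-10) and with numbers of peaks, as log2(n + 1) (1.45, adjusted p = 0.00594).

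Over the steps, 2 of the 8 genes fell from day 3 to day 6 (Tcf7l2 and Nkd1), against 41.3% of windows. Days 3 and 6 lie in both batches, and with batch as a term 4 fell, against 60.2% of windows, with Ctnnb1 (-0.77, adjusted p = 0.00451) and Tcf7 (-0.42, adjusted p = 0.0314) in addition. Within batch DG-3458 alone 6 fell, against 56.7%: Tcf7l2, Nkd1, Axin2 (-0.87, adjusted p = 0.00638), Tcf7l1 (-0.82, 0.00246), Ctnnb1 (-0.70, 0.0436) and Lef1 (-0.70, 0.0278). From day 9 to ESC 4 rose (Tcf7, Lef1, Axin2, Sp5), against 25.7%, and 1 fell (Nkd1), against 14.7%. From MEF to ESC 1 was higher (Lef1), against 24.9%, and 2 were lower (Tcf7l2 and Nkd1), against 30.5%. The last comparison lies within batch DG-3458. Fitted on the 8 libraries of that batch alone, it kept the same differences with smaller errors and called 7 genes, 4 higher (33.0% of windows) and 3 lower (39.5%), with Tcf7 (0.56, adjusted p = 0.00405), Tcf7l1 (0.83, adjusted p = 0.00151) and Sp5 (0.81, adjusted p = 0.000183) higher and Axin2 (-0.51, adjusted p = 0.0405) lower. Ctnnb1 remained at an adjusted p of 0.0526 there. The calls of Axin2 and Ctnnb1 depend on the fit: with the replicate block on these libraries, or with batch as a term over all 12, Ctnnb1 was called lower (-0.62, adjusted p of 0.0189 and 0.0281), and Axin2 was not called (adjusted p of 0.0605 and 0.184). Within the same batch, all 8 genes were lower at day 3 than in MEF (-2.37 for Axin2 to -1.14 for Ctnnb1). In batch EA-3702 the single day 6 library lay below both day 9 libraries for all 8 genes. Day 9 and ESC share no batch, so no value within a batch exists for that step, but days 3 and 6 lie in both batches and let batch enter as a term, on the assumption that it shifts a window equally at every stage. With that term the median ESC minus day 9 difference of all windows moved from 0.12 to 0.66. It called 6 genes: Tcf7 (1.78, adjusted p = 0.000256), Lef1 (2.17, 0.000492), Axin2 (1.58, 0.0114), Sp5 (2.05, 0.00178) and Tcf7l1 were higher, against 49.8% of windows, and Nkd1 (-1.11, adjusted p = 0.00941) was lower, against 8.48%. Of the genes not called, Tcf7l2 went from -0.45 to 0.44 (adjusted p = 0.153) and Ctnnb1 from -0.94 (adjusted p = 0.0676) to -0.17 (adjusted p = 0.643). Without that term Ctnnb1 was called lower in ESC than at day 9 with equal top peaks (-1.38, adjusted p = 0.00181) and at a q-value of at most 0.01 (-1.04, adjusted p = 0.0232).

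Single regions show where the cover lay. Merged peaks present in at least 2 libraries of a stage gave 153 H3K27ac regions in the 8 windows, of 106528 in the genome. Of these, 46 were in both ESC libraries and neither MEF library (29.6% of all regions in the genome were), 51 in both MEF and neither ESC (39.4%), and 26 in both stages (14.9%). By stage, 79 of the 153 were present in MEF (56.5% in the genome), 44 on day 3 (25.4%), 16 on day 6 (12.1%), 52 on day 9 (29.7%) and 75 in ESC (45.8%). Presence takes both libraries of MEF, day 9 and ESC, but any 2 of the 3 at days 3 and 6. Tcf7l1 held 22 of the 46 ESC regions, and Tcf7l2 held 26 of the 51 MEF regions. Of these 26, 22 had their middle inside the gene and 10 were still present on day 3, but 2 at day 9. At Tcf7l1, 15 of the 22 lay inside the gene and 6 were present by day 9. Each paralog also held regions of the other kind, 8 in MEF and not ESC at Tcf7l1 and 5 in ESC and not MEF at Tcf7l2. Their start regions did not differ in presence: a 4316 bp region at Tcf7l1 and a 12800 bp region at Tcf7l2 had a peak in all 12 libraries. Leaving out either ESC library raised the count of 46 to 76 or 86, since a single library then decides presence.

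**Figure D2:**
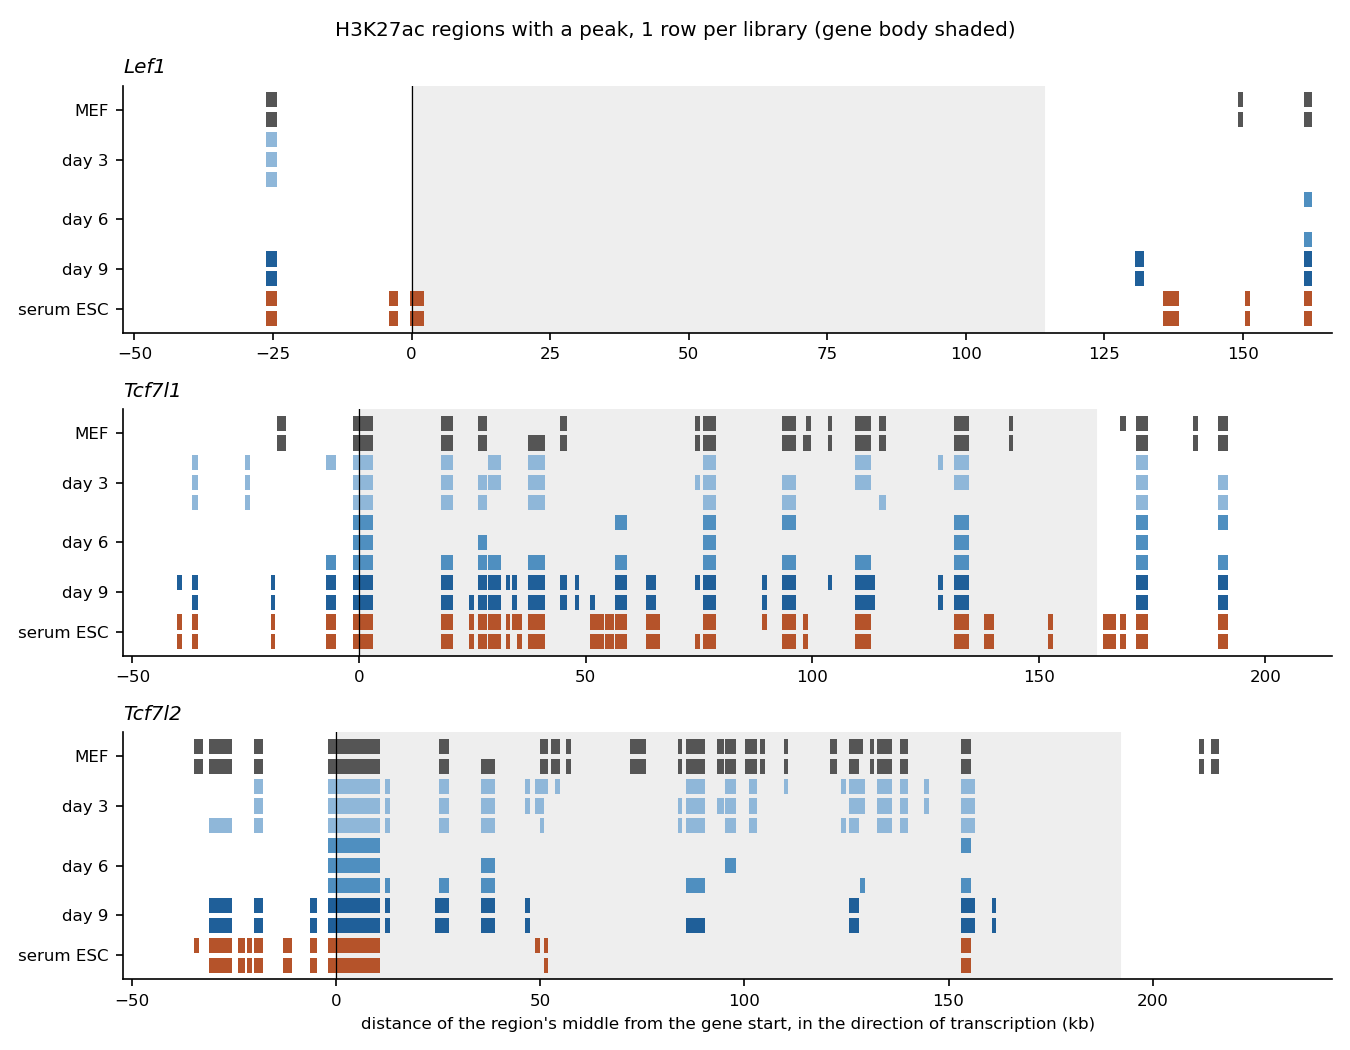
H3K27ac regions with a peak in each library (1 row per library, grouped by stage) by distance of the region from the gene start in kb, in the direction of transcription. Gene bodies are shaded and narrow regions are widened to a minimum so that they can be seen; regions inside Tcf7l2 are mostly in MEF and day 3 rows, and those at the Lef1 start in ESC rows.

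At Lef1, 5 of its 8 ESC regions lay within 5 kb of the gene start. The region over the listed promoter (chr3:131110302-131110737) had a peak in both ESC libraries and in none of the other 10, as did regions 1.11 and 1.84 kb inside the gene and a pair before it, at -2.91 and -3.70 kb. That region begins within the 50 bases after the listed start and so just past the Lef1 bases printed above. At Sp5 the region inside the gene (chr2:70475734-70477204) was likewise in both ESC libraries alone. At Nkd1, 7 regions inside the gene were present in MEF and absent in ESC, and none was gained in ESC. The Nkd1 region in all 12 libraries lay after the gene (chr8:88626990-88628239). Axin2 had H3K27ac at its listed promoter, which lies inside the gene's span, in 2 of 2 MEF, 2 of 3 day 3, 1 of 3 day 6, 2 of 2 day 9 and 2 of 2 ESC libraries. Ctnnb1 had start and -14.2 kb regions in all 12 libraries. The Tcf7 start region (chr11:52282290-52283404) was in both MEF, both day 9 and both ESC libraries and in none of the 6 at days 3 and 6. The share of listed promoters with H3K27ac in at least 2 libraries was 41.0% (MEF), 30.7% (day 3), 25.0% (day 6), 37.9% (day 9) and 36.8% (ESC).

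KLF4 gave 451 peaks in the 8 windows. Its 10 libraries are fewer than those of H3K27ac, so counts of calls are not compared between the targets. Over 18861 windows limma called none of the 8 genes over the 5 groups, against 6.08% of windows, and the exact permutation test, whose smallest p was 0.00106, called no window after adjustment (2588 at an unadjusted p below 0.05). In steps, limma called none of the 8 from day 3 to day 6 (0.0477% of windows; 1470 windows at an unadjusted p below 0.05), from day 6 to day 9 (0.00530%; 876) or from day 9 to serum ESC (0.260%; 2931). From day 3 to serum ESC it called 1 of the 8 lower, Tcf7l2, against 5.30% of windows. By region, 38 of the 61 were present on day 3 (48.1% in the genome), 26 on day 6 (40.2%), 35 on day 9 (51.5%), 23 in serum ESC (43.4%) and 23 in 2i (40.5%). The median difference of cover of the 8 genes from day 3 to serum ESC was -0.61 and that of all windows -0.34.

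**Figure D3:**
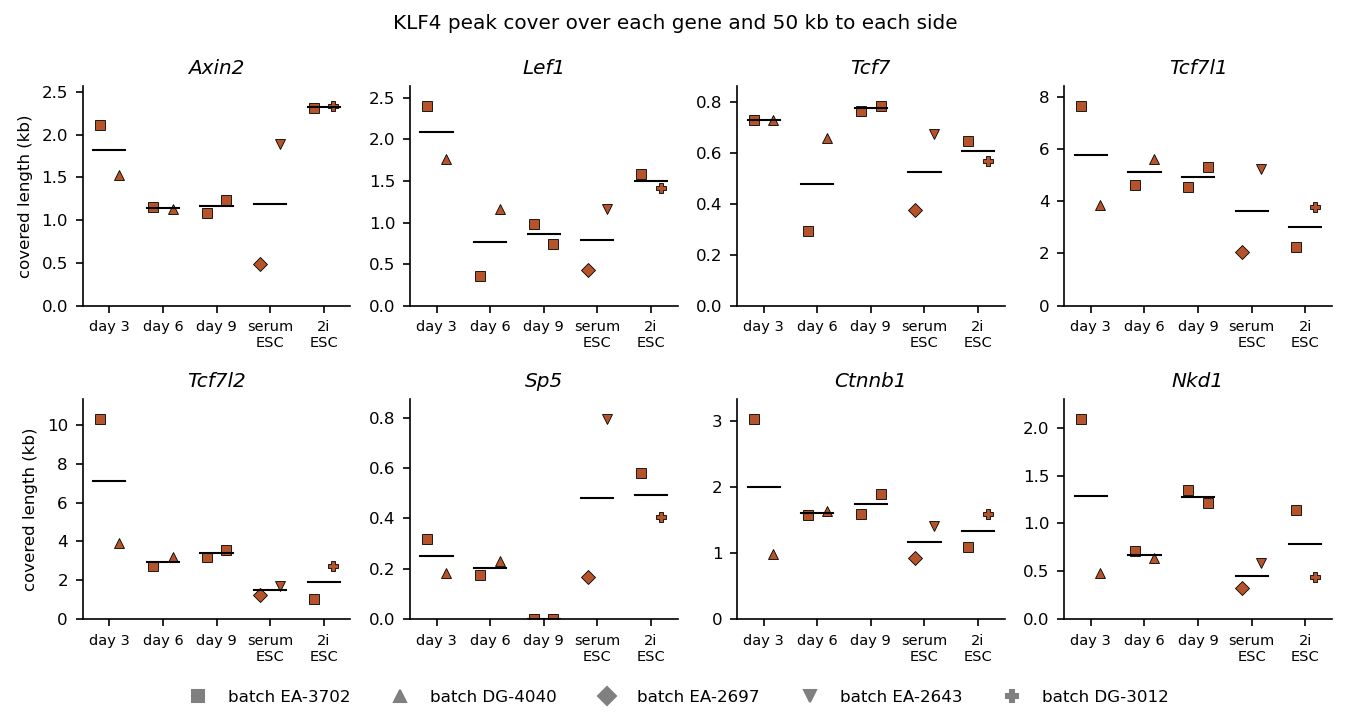
KLF4 covered length (kb, axis from 0, own scale per gene) over each gene and its 50 kb flanks, 1 point per library and a line at each group mean, with symbols by batch as the legend gives them. The serum ESC libraries differ widely from each other at most genes, and day 3 of batch EA-3702 is highest at Lef1, Tcf7l1, Tcf7l2, Ctnnb1 and Nkd1.

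Ctnnb1 had 3.03 and 0.981 kb of KLF4 cover at day 3, 1.58 and 1.63 kb on day 6, 1.59 and 1.90 kb on day 9, 0.933 and 1.41 kb in serum ESC and 1.10 and 1.59 kb in 2i. The day 3 libraries differed most from each other and spanned all later values but the lowest one of serum ESC. Both serum libraries lay below those of days 6 and 9 without overlap, and no step was called. Both listed Ctnnb1 promoters had a KLF4 peak in all 10 libraries. In total 3 of its 5 regions had a peak in all 10: at the start (chr9:120932931-120933597), before it at -2.35 kb, and 29.0 kb from it, past the gene's end. Over the genome 11.3% of KLF4 regions were present in all 5 groups, and in the 8 windows 6 of 61 were.

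Tcf7 had 0.727 and 0.73 kb on day 3, 0.292 and 0.66 kb on day 6, 0.765 and 0.784 kb on day 9, 0.375 and 0.672 kb in serum ESC and 0.648 and 0.568 kb in 2i. Groups lay within less than a kilobase of each other. A region before the gene, at -41.7 kb, had KLF4 in 5 of the 6 reprogramming libraries and in none of the 4 ESC libraries. The H3K27ac region over the same place (chr11:52324041-52325079) was in both ESC libraries, 1 day 9 and 1 day 3 library.

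Lef1 had 2.40 and 1.77 kb on day 3, 0.359 and 1.16 kb on day 6, 0.984 and 0.746 kb on day 9, 0.423 and 1.17 kb in serum ESC and 1.58 and 1.41 kb in 2i. Day 3 was above all other libraries, with serum ESC minus day 3 at -1.05 (log2; adjusted p = 0.157). A region 3.67 kb inside the gene had KLF4 in both day 3 libraries and 1 day 6 library and in none later. A region before the gene, at -4.16 kb, had it in 1 day 6, 1 serum and both 2i libraries. The region with KLF4 in most libraries, 9 of 10, lay over the promoter of the neighbour Hadh, a mitochondrial fatty acid oxidation enzyme.

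Tcf7l1 had 7.66 and 3.86 kb on day 3, 4.62 and 5.64 kb on day 6, 4.54 and 5.30 kb on day 9, 2.07 and 5.22 kb in serum ESC and 2.25 and 3.76 kb in 2i. All groups but 2i reached above 5 kb in 1 library. Of its 19 regions 11 had their middle inside the gene. The one 1.56 kb from the start (chr6:72787068-72787911) had, in the 10 libraries, scores at or above 75.8 to 99.6% of the peaks of their list, with a mean percentile of 93.2, the highest of the 61 regions. The promoter of Tcf7l1 also had a peak in all 10 libraries. Regions came and went around these: 45.3 and 77.6 kb from the start KLF4 was in all 4 libraries of days 3 and 6 and none of the other 6, and before the gene, at -19.5 kb, it was in all 6 libraries of day 9, serum and 2i and none before.

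Tcf7l2 had 10.3 and 3.93 kb on day 3, 2.73 and 3.19 kb on day 6, 3.21 and 3.55 kb on day 9, 1.23 and 1.73 kb in serum ESC and 1.03 and 2.76 kb in 2i. Both day 3 libraries were above all others, and serum ESC was below every reprogramming library. Serum ESC minus day 3 was -1.82 ± 0.48 (log2, SE; adjusted p = 0.0391). Without the day 3 library of 10.3 kb, from batch EA-3702, the difference was -1.17 (adjusted p = 0.26), and the call held in only 1 of the 10 fits that left out a library, that without day 3 of batch DG-4040. Of 16 regions, 8 were present at day 3 and absent in serum ESC, out of 16 such regions in the 8 windows (19.4% of regions in the genome were of this kind). These included a region before the start, at -1.47 kb, and one 126 kb inside the gene, each in all 6 reprogramming libraries and in none of the 4 ESC libraries. The start region (chr19:55740694-55742038) had a peak in all 10 libraries, with a mean score percentile of 86.7.

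Axin2 had 2.12 and 1.53 kb on day 3, 1.15 and 1.12 kb on day 6, 1.09 and 1.23 kb on day 9, 0.482 and 1.89 kb in serum ESC and 2.32 and 2.34 kb in 2i. The 2i libraries were highest, and serum ESC held the lowest value of all and one between those of day 3. The Axin2 promoter had a KLF4 peak in both libraries of day 3, of day 6 and of 2i, and in none of day 9 or serum ESC. The wider region around it (chr11:108920113-108921402) had a peak in 9 of 10 libraries, missing in serum ESC of batch EA-2697, so the peaks of day 9 and of the other serum library lay beside those bases. A region before the gene, at -6.97 kb (chr11:108910317-108911391), over the promoter of Gm46298, had KLF4 in all 4 libraries of days 3 and 6 and in all 4 ESC libraries, and in 1 of 2 at day 9. H3K27ac within it (chr11:108910569-108911115) was called in both ESC libraries and none of the other 10.

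Nkd1 had 2.09 and 0.486 kb on day 3, 0.707 and 0.636 kb on day 6, 1.35 and 1.21 kb on day 9, 0.324 and 0.581 kb in serum ESC and 1.14 and 0.435 kb in 2i. The spread within day 3 was wider than that between the group means. Sp5 had 0.316 and 0.184 kb on day 3, 0.176 and 0.231 kb on day 6, none at day 9, 0.166 and 0.793 kb in serum ESC and 0.581 and 0.405 kb in 2i. Its region inside the gene (chr2:70475844-70476252) had KLF4 in 1 serum and both 2i libraries and in none of the 6 reprogramming libraries. The peaks of days 3 and 6 lay 34.4 kb from the Sp5 start (chr2:70509058-70509530), within the H3K27ac region over the Erich2 promoter. The Sp5 listed promoter had no KLF4 peak in any library, nor did that of Nkd1, which lies inside the gene. At the start of the Nkd1 span, over a listed promoter of Gm35162, a region (chr8:88521045-88521390) had KLF4 in 7 of 10 libraries, with both of day 9, both of serum ESC and 1 each of day 3, day 6 and 2i. H3K27ac there (chr8:88520970-88522115) was in both MEF, both ESC and 1 day 9 library and in none of days 3 and 6. Over the genome, the share of listed promoters with a KLF4 peak in 2 libraries was 13.5% (day 3), 14.6% (day 6), 16.5% (day 9), 13.9% (serum) and 15.1% (2i).

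**Figure D4:**
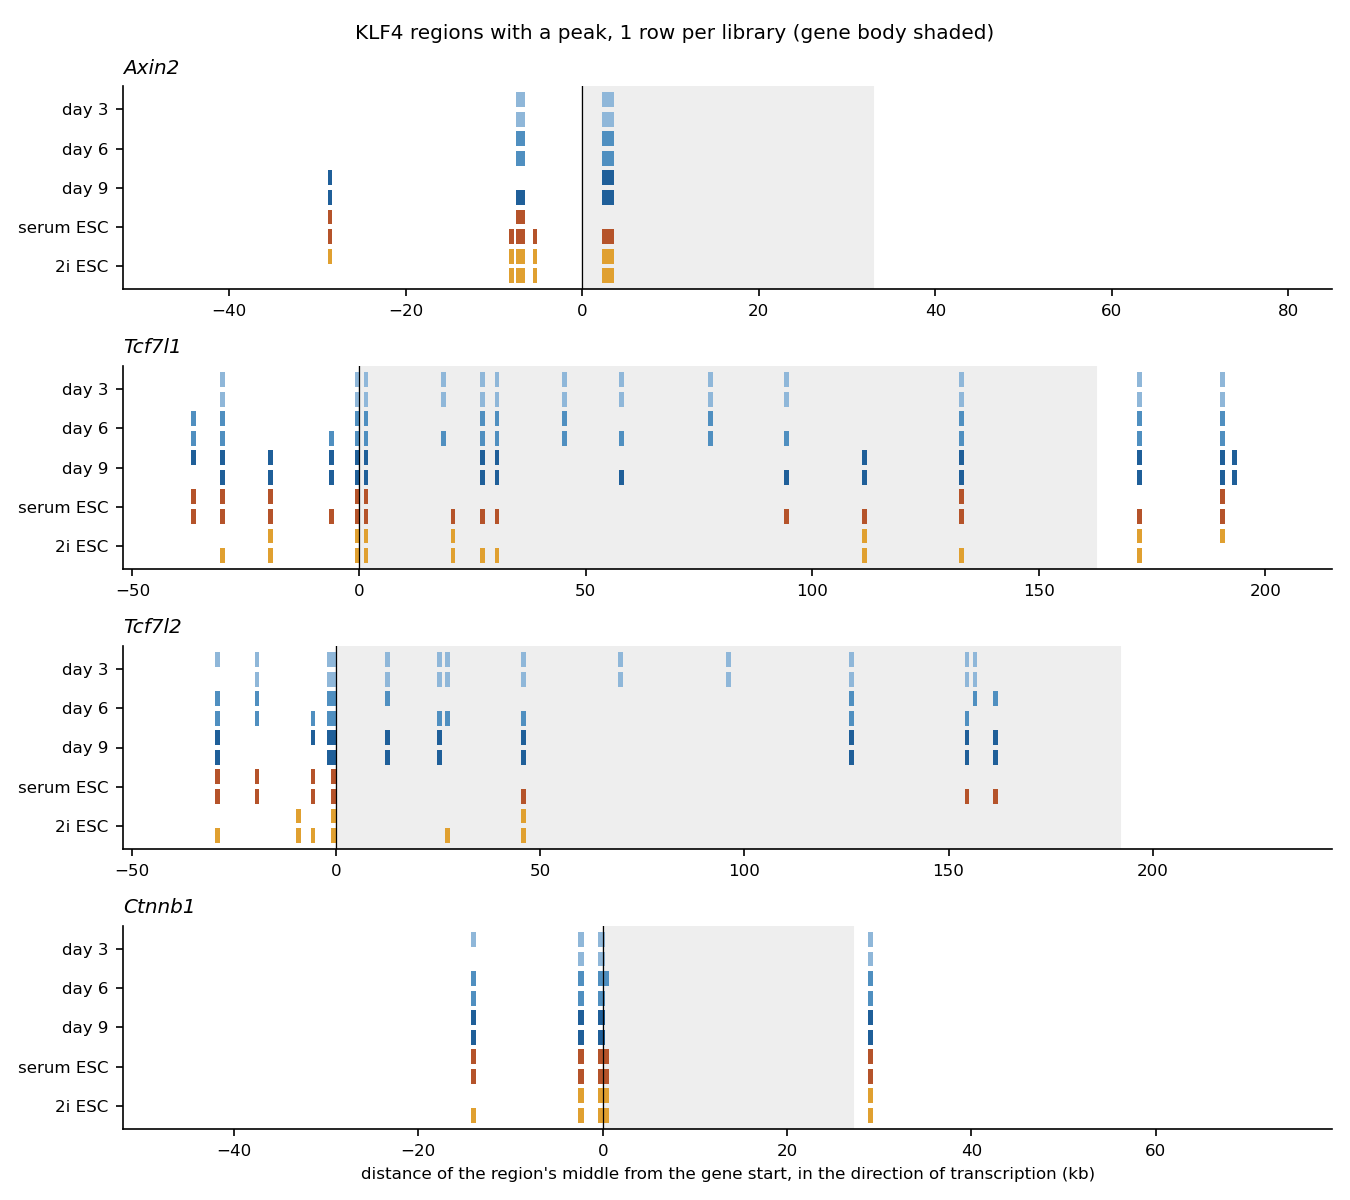
KLF4 regions with a peak in each library (1 row per library, grouped by stage) at Axin2, Tcf7l1, Tcf7l2 and Ctnnb1, by distance of the region from the gene start in kb. Gene bodies are shaded and narrow regions are widened to a minimum; start regions of Tcf7l1, Tcf7l2 and Ctnnb1 run through all 10 rows, whereas those inside Tcf7l2 thin out in ESC rows.

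The last comparison set KLF4 in 2i ESC, with the GSK3 inhibitor present, against serum ESC. No gene of the 8 was called, against 1 window of 18861 (0.00530%; 1159 at an unadjusted p below 0.05). Axin2 and Lef1 were the genes for which both 2i libraries were above both serum libraries. The Axin2 difference was 0.88 (log2, 95% interval -0.02 to 1.79, limma adjusted p = 0.792) and that of Lef1 was 0.69 (interval -0.24 to 1.61, adjusted p = 0.793), beside 0.26 for the median of all windows. An exact two-sided permutation test of these 4 libraries gave p = 0.333 for each, the smallest value that 3 labelings allow. The other 6 genes had differences between -0.16 (Tcf7l1) and 0.39 (Nkd1), and every interval included 0. The intervals were wide, for instance -1.20 to 0.87 for Tcf7l1 and -0.83 to 1.21 for Tcf7l2, so a change of either sign is not told from none.

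**Figure D5:**
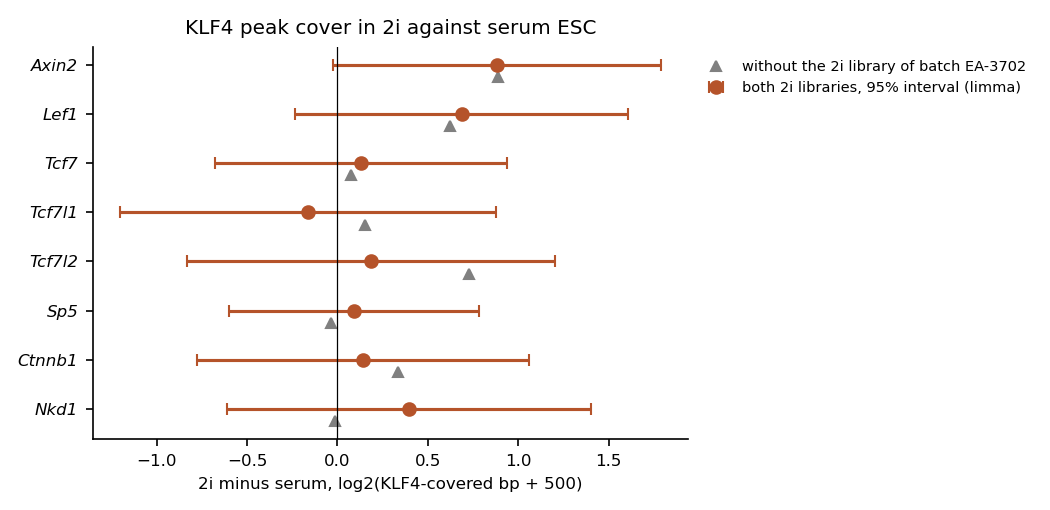
Difference in KLF4 cover between 2i and serum ESC, as log2(bp + 500), for each of the 8 genes. Circles with bars are the difference of both libraries of each medium with its 95% interval from limma, and triangles leave out the 2i library of batch EA-3702; every bar spans 0.

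Without the 2i library whose peak names lack 2i, the differences were 0.89 for Axin2, 0.63 for Lef1, 0.73 for Tcf7l2 and 0.34 for Ctnnb1. They were 0.15 for Tcf7l1, 0.08 for Tcf7, -0.01 for Nkd1 and -0.04 for Sp5. Without the 2i library of batch DG-3012 they were, in the same order, 0.88, 0.75, -0.36, -0.05, -0.48, 0.18, 0.80 and 0.22. The sign thus turned for Tcf7l2, Ctnnb1, Tcf7l1, Nkd1 and Sp5. Leaving out serum ESC of batch EA-2697 moved Axin2 and Lef1 to their lowest values, 0.24 and 0.26. The 4 ESC libraries come from 4 batches, and culture medium cannot be told apart from batch.

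By region, 9 of the 61 KLF4 regions were in both serum and both 2i libraries (25.0% of 37138 in the genome), 4 of them at Ctnnb1 and 3 at Tcf7l1. In both serum and neither 2i library were 3 regions (8.66% in the genome): before Tcf7l1 at -36.6 kb (chr6:72825467-72825820), before Tcf7l2 at -19.3 kb (chr19:55722166-55722902) and past the end of Nkd1 (chr8:88627692-88628529). The Nkd1 region had KLF4 in all 8 libraries other than 2i, with score percentiles of 38.5 to 96.3, and it overlaps the H3K27ac region found in all 12 libraries. In both 2i and neither serum library were 2 regions (5.28%), 55.7 kb from the Tcf7 start, past the gene (chr11:52227569-52227833), and before Tcf7l2 at -9.08 kb (chr19:55732560-55732876). Neither had a peak in another library, and the percentiles were 30.2 and 96.2 at the first and 37.6 and 92.4 at the second, higher in batch DG-3012. These counts turn on single libraries. Without the 2i library of batch EA-3702 they were 15 shared, 8 serum and 16 2i regions, and without that of DG-3012 15, 9 and 5. Without the serum library of EA-2697 there were 21 shared and 19 serum regions, and without that of EA-2643 5 serum and 14 2i regions.

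Other genes of the pathway are given for context, from a list of 73. In H3K27ac, 57 of 73 fell from MEF to day 3 and none rose (65.1% of all windows fell), 35 fell from day 3 to day 6 (41.3%), and 66 rose from day 6 to day 9 (87.4%). From MEF to ESC 15 rose (24.9% of all windows) and 26 fell (30.5%), with a median of -0.31 against -0.11 over all windows. Among 15 secreted inhibitors and agonists 6 rose and 8 fell, among 19 WNT ligands 2 and 7, and among 14 receptors 1 and 5. The widest falls were at the ligand Wnt2b, with 11.0 and 12.1 kb in MEF, and the R-spondin Rspo3, with 9.89 and 9.24 kb; both windows were listed at 0 in ESC. The widest rises were at the receptor Fzd10, listed at 0 in MEF and with 4.77 and 5.75 kb in ESC, and at the inhibitor Dkk1, with 0.337 and 0.591 kb in MEF and 3.57 and 4.33 kb in ESC (2.21 ± 0.35, log2, SE). In KLF4, 1 of the 72 tested, the ligand Wnt16, was lower in serum ESC than at day 3, against 5.30% of windows. None of the 72 was called between 2i and serum, against 0.00530%.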

How the data were processed

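ChIP-seq peak lists of 22 libraries were used, 1 list per library; 13 input libraries were not used here. Per the submitters' processing notes, cutadapt 1.8.1, Bowtie2 2.2.5, deepTools 2.3.6 and MACS2 2.1.1 were used with build mm10. The protocols name antibodies for H3K27ac and KLF4. For each peak the authors deposited its score, its fold (ratio) of enrichment, and its p-value and q-value as −log10. These values rank peaks within a list, and percentiles are of the score. No read counts are given, so cover depends on depth and enrichment, and a region without a peak may still hold signal.

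The window of a gene was its GRCm38.p6 span plus 50 kb. The base pairs under peaks were tested as log2(bp + 500) with limma 3.58.1 in R 4.3.3 (empirical Bayes with trend, group means), over windows with a peak in at least 2 libraries and adjusted by Benjamini-Hochberg at 0.05. Differences are on that scale, which understates changes of short covers. Exact permutation tests used SciPy 1.17.1. P-values measure the spread between libraries, which the design text calls biological replicates. Regions are merged peaks overlapping by at least 1 bp in at least 2 libraries of a group; present means at least 2 libraries and absent none. Alternatives were a 10 kb flank, numbers of peaks, equal numbers of top peaks, a q-value of at most 0.01, pseudocounts of 100 and 2000, no filter, batch, and leaving out each library. The code was tested on simulated data whose window means were kept well above the pseudocount. Short covers, such as those of most genes here, were therefore not tested. All 8 genes are named, and of the other 73 pathway genes the 2 highest and 2 lowest called differences of ESC minus MEF. The members and lists were chosen with earlier results of these data known.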

Additional observations from a re-analysis of the deposited data

How the results depend on the processing

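Where a value moved, the cause was not tested unless said. Counts of the 8 genes called in H3K27ac are given with the share of all windows called in either direction in the same fit. From MEF to day 3 the 8 called (66.8% of windows) became 4 with a 10 kb flank (60.6%) and with numbers of peaks (41.1%), and 4 of 7 tested with equal numbers of top peaks (53.1%), where Sp5 did not pass the filter and the Nkd1 difference was reversed, at 1.44 (adjusted p = 0.0593). From day 3 to day 6 the 2 (41.6%) became 1 of 7 with equal top peaks (14.4%), 1 at a q-value of at most 0.01 (35.0%) and 4 with batch as a term (61.2%). From day 9 to ESC the 5 (40.5%) became 3 at that q-value (36.0%) and 2 with a pseudocount of 100 (31.9%). From MEF to ESC the 3 (55.3%) became 5 with numbers of peaks (56.4%) and with a pseudocount of 2000 (63.6%), and 7 with batch as a term (70.3%). The KLF4 call of Tcf7l2 from day 3 to serum ESC went to 0 at the q-value limit, with numbers of peaks, with a pseudocount of 100 and without the filter.

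Libraries of batch DG-3458 share numbers, but same-numbered libraries did not deviate together (correlations -0.0141 to 0.0372). With the replicate block on that batch, 6 genes were called from day 3 to day 6 (58.0% of windows) and 7 from MEF to ESC (73.3%). The same 8 libraries without the block also gave 6 (57.4%) and 7 (72.5%), as did the day 6 numbers crossed (55.4% and 70.8%), an alternative chosen after seeing the data. The 7 were not the same genes: Ctnnb1 was called with the block and with the crossed numbers (adjusted p of 0.0189 and 0.0444), and Axin2 without the block (0.0405). In KLF4, days 3 and 6 each have 1 library in batches EA-3702 and DG-4040, which pairs them by batch. With batch as a term over days 3 to 9, limma called 0 of the 8 genes and 0 windows over these days and in both steps (2441 windows at an unadjusted p below 0.05 from day 3 to day 6, 2557 from day 6 to day 9 and 4350 over the days). The serum ESC batches are not shared by another KLF4 group.

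With equal top peaks H3K27ac regions in ESC and not MEF went from 46 to 8, in MEF and not ESC from 51 to 12, and in both from 26 to 8; fewer peaks enter by construction. With the 10 kb flank the first and last were 29 and 16. KLF4 regions in serum and not 2i went from 3 to 1 with equal top peaks and 0 with 10 kb, and those in 2i and not serum from 2 to 5, and to 1 with 10 kb and at the q-value limit. At that limit 4 regions were shared by serum and 2i, 6 were at day 3 and not in serum ESC, and 2 in all 5 groups. Regions on day 3 and not in serum ESC were 9 with equal top peaks, and those in serum ESC and not day 3 went from 5 to 2 with 10 kb.

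With each library left out in turn, the genes called in H3K27ac ran from 5 to 8 (MEF to day 3), 2 to 6 (day 3 to day 6), 7 to 8 (day 6 to day 9), 2 to 6 (day 9 to ESC) and 1 to 5 (MEF to ESC). Those called in KLF4 ran from 0 to 2 (day 3 to ESC) and 0 to 1 over all groups. Regions ran from 46 to 86 (ESC and not MEF), 50 to 72 (MEF and not ESC), 26 to 30 (both), 3 to 19 (serum and not 2i), 2 to 16 (2i and not serum), 9 to 21 (both media), 16 to 36 (day 3 and not ESC), 5 to 24 (ESC and not day 3) and 6 to 9 (all groups). The count of 36 came without day 3 of batch DG-4040 and that of 24 without serum ESC of EA-2697. The number of libraries, 2 or 3 a group, and unknown depth limit each value.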

Other observations

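For each of the 8 genes, the protein-coding window whose log2 H3K27ac cover followed it most closely over the 12 libraries was found by Pearson's r. These were Myo9a for Axin2 (r = 0.988), Pmel for Lef1 (0.995), Kdm1a for Tcf7 (0.996), Lrr1 for Tcf7l1 (0.993), Hmgxb3 for Tcf7l2 (0.992), Ccr1 for Sp5 (0.985), Pigq for Ctnnb1 (0.993) and Rhag for Nkd1 (0.992). Between 1630 and 4745 windows had an r over 0.9 with a given gene. All points share the length of their library's list, so these values are a description.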
